A study of Homo sapiens with 24 samples.

Results

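The genes described here encode the parts of the inflammasome and of pyroptosis: the sensors MEFV, NLRP3 and NLRP1, the adaptor PYCARD, the caspases CASP1, CASP4 and CASP5, the cytokine IL18, and the pore-forming gasdermins GSDMD and GSDME. They were chosen by symbol, and all 10 were found among the 61860 Ensembl identifiers of each deposited count table. The list was drawn up with the fold changes of all 4 comparisons known, so the values below describe the listed genes and are no independent evidence about them.

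An inflammasome forms when a sensor meets a danger signal and gathers the adaptor ASC, the product of PYCARD, which in turn gathers procaspase-1. Active caspase-1 matures interleukin-18 and interleukin-1β and cuts gasdermin D, whose free end perforates the plasma membrane. Caspase-4 and caspase-5 bind bacterial lipopolysaccharide in the cytosol and cut gasdermin D without such a complex. Pyrin, the product of MEFV, senses the inactivation of RHOA and is best known from neutrophils and monocytes, whereas NLRP1, caspase-4 and interleukin-18 are characteristic of epithelium. RNA counts measure the supply of these proteins and not their cutting or assembly.

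Each of the 4 experiments compared 3 treated with 3 control libraries of OE33, a cell line from a human esophageal adenocarcinoma. Xenograft libraries came from tumors grown for 3 weeks under the skin of male BALB/c-nu mice, bought at 4 weeks of age and kept for 8 weeks on normal chow (ND) or on food high in fat (HFD) before OE33 cells were injected; these nude hosts lack T cells but keep myeloid cells, and carried unmodified OE33 cells on both diets. In culture, OE33 cells received a plasmid for HA-tagged TRIM15 (HA-TRIM15) or the empty vector (EV) for 48 h, a short hairpin RNA against YY2 (shYY2) or shControl for 72 h, or a hairpin against FOXRED1 (shFOXRED1) or a separate set of shControl cultures for 72 h. Which hairpin of each gene was used is not given in the sources used here, and nothing states that the 3 libraries of a group came from separate cultures, so their spread may be partly technical. Total counts ran from 14299807 to 45994561 per library. The targeted genes followed the labels: TRIM15 had 111, 130 and 181 counts with HA-TRIM15 against 0 in each EV library, YY2 had 11, 12 and 11 counts with shYY2 against 43, 40 and 46, and FOXRED1 had 183, 207 and 129 counts with shFOXRED1 against 322, 259 and 254. In the xenografts TRIM15 had 14, 12 and 24 counts on HFD against 1, 0 and 0 on ND. All 8 epithelial markers were well above 3 counts in every library, and the 4 T and NK cell markers summed to at most 5 counts.

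As examples of what lies upstream of the members, the promoters of MEFV, CASP4 and CASP5 are printed from RefSeq (GRCh38.p14), which holds 6 of the 10 genes in the table used here. MEFV had one of the largest fold changes in the xenografts, and CASP4 and CASP5 are neighboring paralogs that differ in level. Each sequence spans 300 bases around the annotated start, most of them before it, and capitals mark the 1 match to the STAT-type motif TTCNNNGAA.
MEFV, chr16:3256584-3256883, minus strand: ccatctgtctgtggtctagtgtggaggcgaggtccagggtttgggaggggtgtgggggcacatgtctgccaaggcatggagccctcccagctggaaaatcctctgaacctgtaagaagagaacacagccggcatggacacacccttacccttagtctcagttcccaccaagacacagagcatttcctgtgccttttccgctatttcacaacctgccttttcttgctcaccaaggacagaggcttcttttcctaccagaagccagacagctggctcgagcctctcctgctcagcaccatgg
CASP4, chr11:104968525-104968824, minus strand: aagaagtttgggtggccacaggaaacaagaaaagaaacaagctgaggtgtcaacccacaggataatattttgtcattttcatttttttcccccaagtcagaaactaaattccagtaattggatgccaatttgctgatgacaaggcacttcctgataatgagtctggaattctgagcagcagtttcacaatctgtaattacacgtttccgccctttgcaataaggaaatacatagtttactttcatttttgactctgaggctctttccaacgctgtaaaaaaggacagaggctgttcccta
CASP5, chr11:105023119-105023418, minus strand: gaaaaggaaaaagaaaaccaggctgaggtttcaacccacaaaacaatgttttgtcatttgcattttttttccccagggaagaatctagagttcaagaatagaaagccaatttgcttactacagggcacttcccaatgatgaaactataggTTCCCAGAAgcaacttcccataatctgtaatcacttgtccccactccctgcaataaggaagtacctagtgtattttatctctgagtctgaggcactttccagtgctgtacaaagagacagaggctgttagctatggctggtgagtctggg

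The CASP4 and CASP5 promoters were identical at 215 of 320 aligned positions, or 67.2%. The other pairs among the 6 promoters, which also include those of NLRP3, PYCARD and GSDME, shared 39.8% to 49.2%. CASP5 held the only STAT-type match, and 7.66% of the 35116 promoters in the table hold this motif, which reads the same on both strands. The AP-1 motif TGANTCA, present in 7.71% of all promoters, and the YY-type motif CCATNTT, present in 15.6%, matched none of the 6 on either strand. The ETS core TTCCT, present in 63.1% of promoters, was found in 5 of the 6 and not in that of GSDME. These matches describe letters in a window and say nothing about binding.

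Within the control cells the members spanned a wide range of levels, here given per kilobase of exon as CPM, the usual read count scaled to library size, over all 24 libraries. CASP4 was the most abundant member in ND xenografts at 27.2 ± 0.680 (SD, n = 3), in EV cells at 20.1 ± 0.236 and in shControl cells of the YY2 experiment at 19.1 ± 0.543. In the shControl cells of the FOXRED1 experiment PYCARD led with 17.4 ± 0.970, followed by CASP4 with 14.7 ± 0.208. IL18 and PYCARD held the next positions per length in the other control groups. The library ranges of neighbors among CASP4, IL18 and PYCARD did not overlap in any control group.

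Below them came CASP1 and GSDMD with overlapping ranges in ND, EV and the YY2 controls. In the FOXRED1 controls CASP1 was followed by CASP5 and then by GSDMD, without overlap. CASP1 lay between 0.669 ± 0.0762 in EV cells and 2.12 ± 0.0253 in ND xenografts, and the order of the 4 control groups for CASP1 was ND, shControl of the YY2 experiment, shControl of the FOXRED1 experiment and EV, without overlap. CASP5 ranged from 0.0939 ± 0.00620 in EV cells to 0.903 ± 0.104 in ND xenografts. Within a library CASP4 exceeded its paralog CASP5 per length by between 16.3-fold and 361-fold. The upper end comes from shYY2 replicate 2, which had 2 CASP5 counts, so it is uncertain. In ND xenografts the excess ran from 27.5-fold to 32.9-fold. These folds also depend on the exon lengths of 7256 bases for CASP4 and 1592 for CASP5.

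The sensors and GSDME were low in all control groups. MEFV lay between 0.0822 ± 0.0415 and 0.167 ± 0.0217 CPM per kilobase in the control groups, and NLRP1 between 0.0390 ± 0.0115 and 0.0639 ± 0.00872. For MEFV, NLRP1 and GSDME the ranges of neighboring control groups overlapped throughout. NLRP3, the best-studied sensor, had 1 count in 1 EV library and 0 in the other 23. A count of 0 allows up to 3 counts, or 0.0652 to 0.210 CPM depending on the library, for counting error only. Growth in mice, experiment and sequencing run cannot be told apart in these comparisons between control groups.

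**Figure D1:**
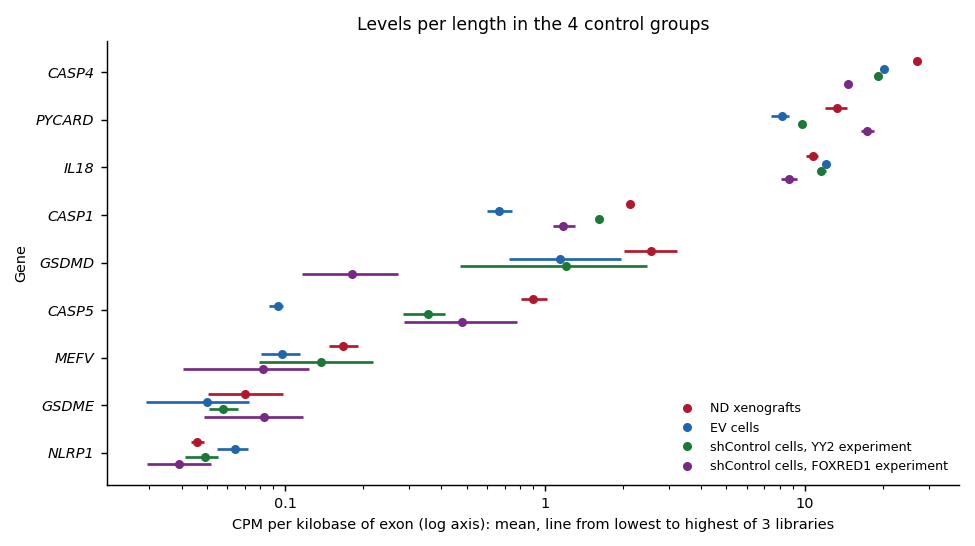
CPM per kilobase of exon on a log axis for 9 members in the 4 control groups, where points are means of 3 libraries and lines run from the lowest to the highest library. CASP4, PYCARD and IL18 lie well above the other members, MEFV, GSDME and NLRP1 lie lowest, and NLRP3 is left out because it had 1 count in all.

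Between treated and control libraries the members responded differently in the 4 experiments. A gene was called where its adjusted p in the fit over all genes was under 0.05 (edgeR's quasi-likelihood test, Benjamini-Hochberg adjustment). In HFD against ND xenografts 9 of the 10 members had enough counts to be tested, 4 were higher and 1 was lower. Of all 17012 tested genes 49.5% were called, 25.6% higher and 23.9% lower, and in 56.2% the groups did not overlap, as in 5 of the members. With HA-TRIM15 none of 7 tested members was called, while 22.1% of all 15745 tested genes were, 12.5% higher and 9.53% lower. The groups did not overlap in 37.7% of all tested genes and in none of the 7 tested members. No member passed an unadjusted p of 0.05 there either, and DESeq2's Wald test called none.

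With shYY2, 6 of 8 tested members were higher and none was lower, and 6 did not overlap between groups. There, 75.0% of all 16006 tested genes were called, 36.8% higher and 38.1% lower, and 76.3% did not overlap. With shFOXRED1, 2 of 7 tested members were higher and 1 was lower, and 4 did not overlap between groups. Of all 15730 tested genes 36.6% were called, 16.8% higher and 19.7% lower, and 46.7% did not overlap. The median log2 fold change of the tested members was 0.13, 0.07, 0.69 and 0.38 in these 4 experiments, and the median over all tested genes lay between -0.01 and 0.01. Since the list was chosen with these contrasts known, nothing is read from its counts against the background. In all, 8 of the 10 members were called in at least 1 experiment. With shYY2 alone 75.0% of all tested genes were called, so this count says little about the members.

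**Figure D2:**
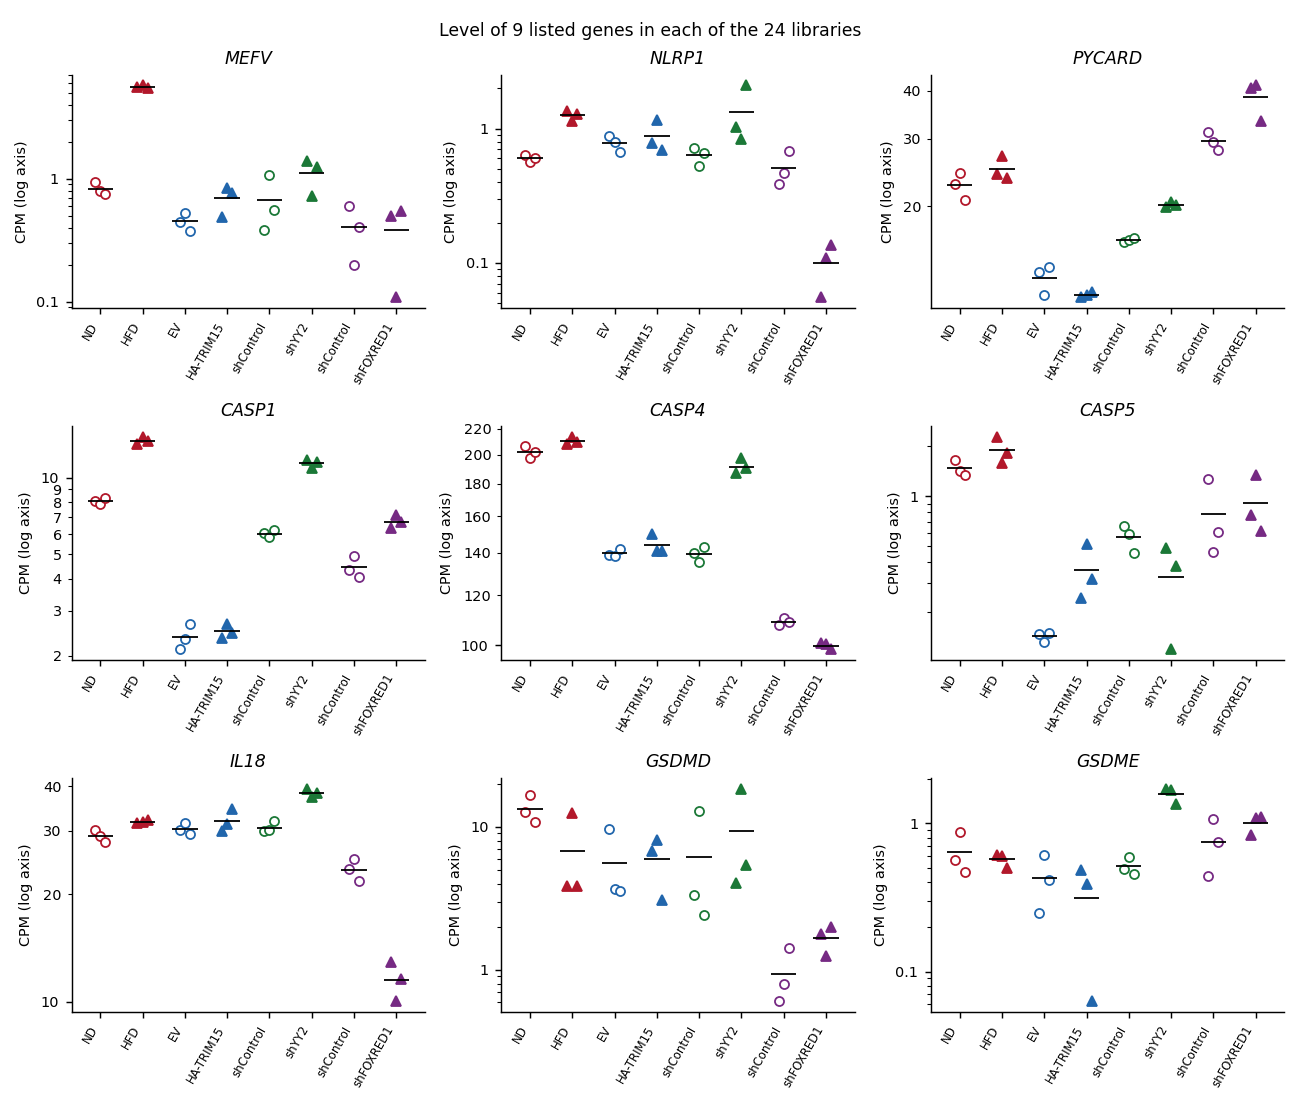
CPM on a log axis for 9 members in each of the 24 libraries, with open circles for controls, filled triangles for treated libraries and bars for group means. MEFV and CASP1 of the HFD xenografts, GSDME with shYY2 and IL18 with shFOXRED1 stand clear of their controls, and GSDMD is scattered within groups.

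Of the sensors, MEFV on chromosome 16 (GRCh38, 3242028 to 3256627, minus strand) had 5.61, 5.79 and 5.46 CPM in the 3 HFD xenografts and 0.937, 0.795 and 0.744 CPM in the ND xenografts. All HFD tumors were far above all ND tumors. The log2 fold change was 2.76 ± 0.14 (SE), a 6.77-fold difference, and the 5th highest among all genes called higher. Leaving out any 1 xenograft kept it between 2.72 and 2.85. In bulk tumors, more RNA per cell and more cells with the RNA cannot be told apart.

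Because pyrin is known from myeloid cells, the human myeloid markers are given beside MEFV. Myeloid cells in these tumors would be those of the mouse host, and the handling of mouse reads is not given. The human markers therefore cannot show whether such cells were present, and no source of MEFV is concluded from them. The summed level of these markers was 14.7 to 15.0 CPM in HFD and 15.4 to 17.0 CPM in ND xenografts, and 3 and 4 of the 10 genes exceeded 3 counts in these groups. AIF1 and TYROBP were at 0 in all 6 xenografts, PTPRC and CD68 had at most 3 counts, and CD14 and ITGAM, which made up most of the sum, were also present in OE33 cultures. Epithelial markers summed to between 14832 and 15039 CPM on HFD and to between 13308 and 13924 on ND, and their part in the result was not tested.

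In culture MEFV stayed near 1 CPM or below. It had 0.487, 0.845 and 0.758 CPM with HA-TRIM15 and 0.444, 0.527 and 0.375 with EV, a log2 fold change of 0.60 ± 0.34 that was not called (adjusted p = 0.228). The effects of HFD and HA-TRIM15 on MEFV differed by 2.18 ± 0.34 on the log2 scale (adjusted p = 3.65e-05, edgeR). With shYY2 it had 1.40, 0.720 and 1.24 CPM against 0.384, 1.06 and 0.555, and its log2 fold change of 0.77 ± 0.36 missed the threshold (adjusted p = 0.0634). It was called without shYY2 replicate 2, at 1.00, or without shControl replicate 2, at 1.23. The shYY2 change was also called without a count filter, at 0.76 (adjusted p = 0.0359, edgeR). In the joint fit of all 24 libraries it was called at 0.80 (adjusted p = 0.0442, edgeR). With shFOXRED1 MEFV had 9, 2 and 8 counts against 11, 3 and 6 and was not tested.

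NLRP1 on chromosome 17 (5499427 to 5619424, minus strand), the sensor of epithelial cells, had 1.36, 1.15 and 1.29 CPM on HFD and 0.637, 0.565 and 0.605 CPM on ND. The groups did not overlap, as for 56.2% of all tested genes, and the log2 fold change was 1.09 ± 0.21 (adjusted p = 0.000464). With HA-TRIM15 its values of 0.779, 1.17 and 0.695 CPM overlapped those of EV at 0.888, 0.791 and 0.674. With shYY2 it had 1.03, 0.840 and 2.11 CPM against 0.714, 0.532 and 0.656, a log2 fold change of 1.08 ± 0.35. The call with shYY2 rested on replicate 3, without which the change was 0.55 with an adjusted p of 0.151.

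With shFOXRED1 NLRP1 went the other way at very low counts. It had 1, 2 and 2 counts in the shFOXRED1 libraries and 7, 7 and 10 in their controls, too few to be tested in that experiment alone. Per library size the summed counts stood in a ratio of 0.203, with a 95% exact interval of 0.0605 to 0.543 that covers counting error only. In the joint fit of both hairpin experiments, the effects of shYY2 and shFOXRED1 on NLRP1 differed by 3.35 ± 0.74 on the log2 scale (adjusted p = 0.000622, edgeR). NLRP1 passed the count filter of that fit through the YY2 experiment, with 17, 14 and 39 counts with shYY2 against 13, 9 and 13. Because the filter was passed where NLRP1 was high, nothing is read from this p-value. MEFV, in the same fit, gave 0.91 ± 0.74 and was not called.

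NLRP3 on chromosome 1 (247416156 to 247449108, plus strand) could not be compared, since no experiment held more than 1 count.

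PYCARD on chromosome 16 (31201485 to 31203450, minus strand) encodes ASC and was higher in both hairpin experiments. With shYY2 it had 19.9, 20.5 and 20.2 CPM against 16.1, 16.4 and 16.5, a log2 fold change of 0.30 ± 0.06. With shFOXRED1 it had 40.6, 41.3 and 33.3 CPM against 31.1, 29.5 and 28.1, a change of 0.38 ± 0.09. Neither pair of groups overlapped, and the 2 effects differed by -0.08 ± 0.12, which was not called.

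On HFD PYCARD had 24.2, 26.98 and 23.7 CPM against 22.9, 24.4 and 20.8, and with HA-TRIM15 11.6, 11.8 and 11.9 CPM against 13.5, 11.7 and 13.9. Both comparisons overlapped, with log2 fold changes of 0.12 ± 0.07 and -0.15 ± 0.09, and the first passed the threshold only without ND replicate 2 (0.18, adjusted p = 0.0499). The antisense gene PYCARD-AS1 overlaps PYCARD over 1566 bases. Whether the counts used strand is not settled, so reads of the 2 genes may have been mixed.

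The inflammatory caspases lie side by side on the minus strand of chromosome 11, CASP4 from 104942866 to 104969436, CASP5 from 104994235 to 105023168 and CASP1 from 105025443 to 105035250. CASP1, the effector of the complex, was higher in 3 of the 4 experiments. It had 13.6, 14.4 and 13.9 CPM on HFD against 8.06, 7.85 and 8.28 on ND, a log2 fold change of 0.80 ± 0.07. With shYY2 it had 11.7, 10.9 and 11.5 CPM against 6.04, 5.85 and 6.20, a change of 0.91 ± 0.09. With shFOXRED1 it had 6.32, 7.14 and 6.70 CPM against 4.35, 4.91 and 4.08, a change of 0.60 ± 0.16.

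In these 3 experiments every treated library lay above every control library. With HA-TRIM15 CASP1 had 2.34, 2.67 and 2.47 CPM against 2.12, 2.33 and 2.66, and its change of 0.06 ± 0.16 was not called. The effect of HFD on CASP1 exceeded that of HA-TRIM15 by 0.77 ± 0.16 on the log2 scale (adjusted p = 0.000621, edgeR). CASP1 shares 4.37% of its 50-base stretches with CARD16, a short caspase-1 relative that binds it, so reads from these stretches cannot be assigned to either. CARD16 itself was higher on HFD, at 5.48 ± 0.779 against 3.89 ± 0.469 CPM, and with shYY2.

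CASP4, which recognizes lipopolysaccharide, was higher only with shYY2, at 187, 198 and 191 CPM against 140, 136 and 143 and with a log2 fold change of 0.46 ± 0.03. With shFOXRED1 it had 100.7, 100.4 and 98.7 CPM against 108, 111 and 109, all treated libraries below all controls. That change of -0.13 ± 0.06 was not called (adjusted p = 0.0891, edgeR) but was with the replicate number as a block (adjusted p = 0.0283, edgeR). It was also called in the joint fit of all 24 libraries, at -0.14 (adjusted p = 0.00449, edgeR). Whether libraries of the same number were paired is not stated. The effects of the 2 hairpins on CASP4 differed by 0.58 ± 0.06 (adjusted p = 2.92e-08, edgeR). On HFD and with HA-TRIM15 the changes were 0.06 ± 0.03 and 0.04 ± 0.04.

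CASP5, the low paralog, was called nowhere. It had 2.28, 1.58 and 1.84 CPM on HFD against 1.65, 1.42 and 1.35 on ND, with an overlap and a log2 fold change of 0.37 ± 0.18 (adjusted p = 0.0942). With shFOXRED1 the change was 0.21 ± 0.45. It was not tested in the other experiments, where it had 5, 8 and 5 counts with HA-TRIM15 against 3, 3 and 4, and 8, 2 and 7 counts with shYY2 against 12, 10 and 9. In CPM the HA-TRIM15 and EV groups did not overlap, at 0.244, 0.520 and 0.316 against 0.148, 0.132 and 0.150. Of all tested genes 37.7% did not overlap there. Per library size the summed counts stood in a ratio of 2.38 with HA-TRIM15 (95% exact interval 1.04 to 5.76) and 0.591 with shYY2 (0.307 to 1.10). These intervals cover counting error only.

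IL18 on chromosome 11 (112143251 to 112164117, minus strand) encodes the cytokine that caspase-1 matures and was the member with called changes in both directions. With shFOXRED1 it had 12.9, 10.1 and 11.6 CPM against 23.4, 25.1 and 21.7 in its controls. The log2 fold change was -1.02 ± 0.11, a 2.03-fold lower level, and every shFOXRED1 library lay below every control. With shYY2 it had 39.3, 37.3 and 38.2 CPM against 29.9, 30.2 and 31.9, and rose by 0.32 ± 0.05. The effects of the 2 hairpins on IL18 thus had opposite signs and differed by 1.34 ± 0.12 on the log2 scale (adjusted p = 2.46e-09, edgeR).

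On HFD IL18 had 31.6, 31.8 and 32.1 CPM against 30.1, 28.98 and 27.9, a log2 fold change of 0.13 ± 0.05 just past the threshold (adjusted p = 0.0338). This call was lost with DESeq2's Wald test (adjusted p = 0.1003) and when any 1 xenograft other than ND replicate 1 was left out (adjusted p up to 0.106). With HA-TRIM15 it had 29.9, 31.3 and 34.6 CPM against 30.2, 31.5 and 29.4, and its change of 0.07 ± 0.06 was not called. IL18 lies wholly within the protein-coding gene AP002884.3 on the opposite strand, so its counts also depend on whether strand was used.

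**Figure D3:**
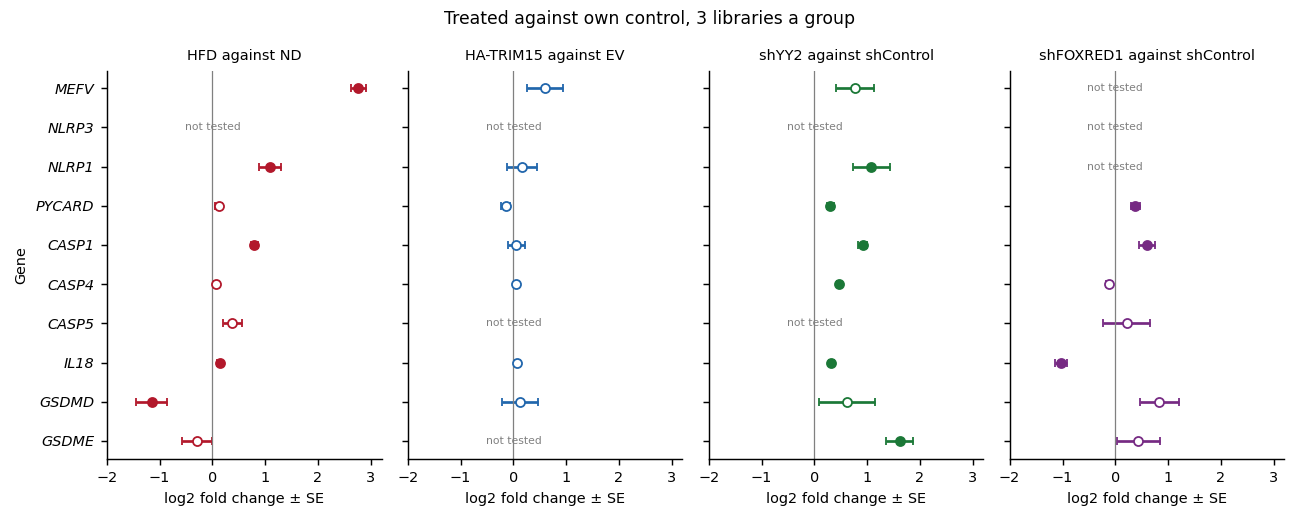
Log2 fold changes (points) of the members in the experiments where they were tested, NLRP3 in none, with standard errors (bars), 3 libraries a group, filled where the adjusted p was under 0.05. MEFV at 2.76 with HFD is the largest change shown, and IL18 is higher with shYY2 and lower with shFOXRED1.

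Of the executioners, GSDME on chromosome 7 (24698351 to 24758113, minus strand) rose with shYY2. It had 1.70, 1.68 and 1.35 CPM against 0.494, 0.591 and 0.454, and its log2 fold change of 1.61 ± 0.26, or 3.06-fold, was the largest among the members in that experiment. GSDME was not called on HFD, with 0.614, 0.601 and 0.499 CPM against 0.562, 0.879 and 0.465, nor with shFOXRED1, with 0.832, 1.08 and 1.09 CPM against 0.440, 1.06 and 0.747. With HA-TRIM15 it had 10, 6 and 1 counts against 5, 14 and 11 and was not tested.

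GSDMD on chromosome 8 (143553207 to 143563062, plus strand), the gasdermin cut by the inflammatory caspases, was the least reproducible of the tested members, except in the shFOXRED1 experiment. On HFD it had 3.86, 12.5 and 3.86 CPM and on ND 12.6, 16.7 and 10.8 CPM. HFD replicate 2 lay within the ND range, while the other two were far below it. The log2 fold change was -1.15 ± 0.29 and was called lower (adjusted p = 0.00370), but DESeq2's Wald test did not call it (-0.996, adjusted p = 0.178). Without HFD replicate 2 the change was -1.82.

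In the cultures GSDMD overlapped between all treated and control groups. It had 6.77, 8.06 and 3.10 CPM with HA-TRIM15 against 9.67, 3.65 and 3.56 with EV. With shYY2 it had 4.08, 18.4 and 5.41 CPM against 3.35, 12.8 and 2.42. Replicate 2 was the highest library in both of these hairpin groups and in both xenograft groups.

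With shFOXRED1 GSDMD had 1.77, 1.24 and 1.98 CPM against 0.605, 0.796 and 1.43, a change of 0.83 ± 0.36 that missed the threshold (adjusted p = 0.0858) and passed it without shControl replicate 3 (1.24, adjusted p = 0.0332). With shYY2 the change of 0.62 ± 0.53 was not called, became 1.68 and called without shControl replicate 2, and was -0.34 without shYY2 replicate 2. With HA-TRIM15 the change was 0.13 ± 0.34, and it ran from -0.13 to 0.73 as each library in turn was left out.

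The spread of GSDMD between replicates was unlike that of genes with similar counts. Its SD within groups was 0.72 log2 CPM in the xenografts, where the median of 1682 genes within 1.5-fold of its mean count was 0.09. In the HA-TRIM15 and shYY2 experiments the SD was 0.77 and 1.196 against medians of 0.13 and 0.13. In these 3 experiments GSDMD varied more than 99.6%, 99.2% and 99.7% of such genes, and in the shFOXRED1 experiment more than 70.8%. In that experiment CASP5 had the larger SD, at 0.58 against 0.46 for GSDMD. By contrast, CASP4 with 0.02 to 0.04 and CASP1 with 0.04 to 0.13 lay near or below their medians in all 4 experiments.

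**Figure D4:**
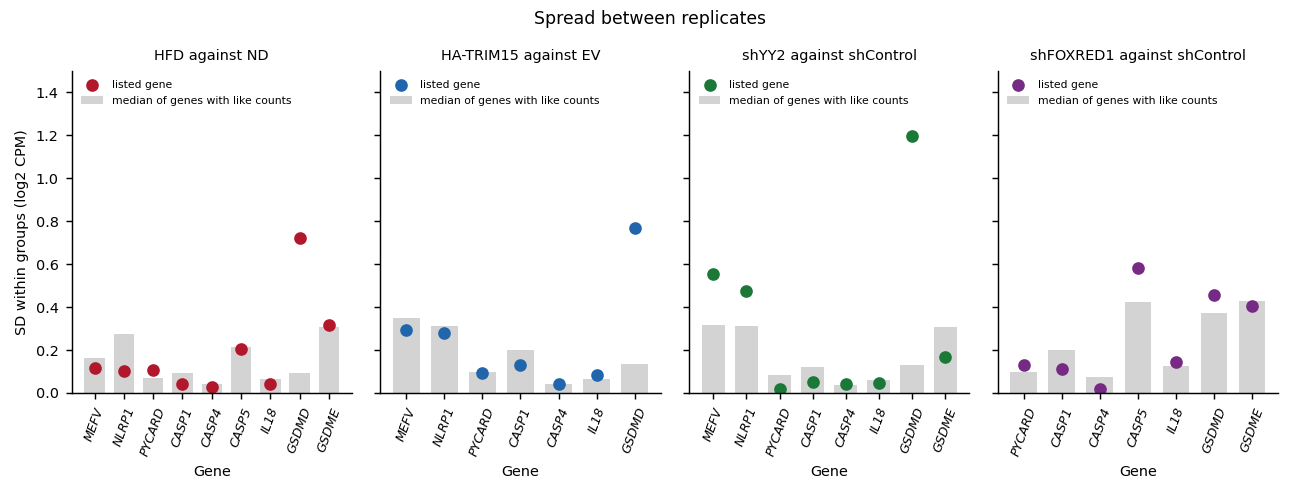
SD of log2 CPM within groups for the tested members (points) and the median of genes with mean counts within 1.5-fold (bars), per experiment. GSDMD stands at 0.72, 0.77 and 1.196 in the first 3 panels, several times the bar beneath it.

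Differences of effects were tested in joint fits of 2 experiments, each with its own controls. Between shYY2 and shFOXRED1, 4 of 9 members were called, all with the more positive effect for shYY2, and 54.4% of all genes were called. These were NLRP1, CASP4, IL18 and GSDME, the last at 1.17 ± 0.48 with an adjusted p of 0.0446 that rose above the threshold in 9 of 12 fits without 1 library. NLRP1 was too low to be tested in the FOXRED1 experiment alone and passed the filter here through the YY2 experiment, so nothing is read from its call. Between HFD and HA-TRIM15, 4 of 9 members were called, all more positive for HFD, against 35.2% of all genes. GSDMD had the largest difference the other way, at -1.24 ± 0.55, which was not called (adjusted p = 0.0873) but was without HFD replicate 2 (-1.93), EV replicate 1 (-1.84) or HA-TRIM15 replicate 3 (-1.54). Besides MEFV and CASP1 the called members were NLRP1 at 0.95 ± 0.33 and PYCARD at 0.30 ± 0.11, whose calls were lost in 7 and 9 of 12 such fits. Without HFD replicate 1 or HA-TRIM15 replicate 1, only MEFV and CASP1 were called.

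Between HA-TRIM15 and shYY2, 5 of 8 members were called, all more positive for shYY2, against 64.4% of all genes. They were PYCARD at -0.46 ± 0.10, CASP1 at -0.87 ± 0.17, CASP4 at -0.42 ± 0.05, IL18 at -0.26 ± 0.08 and GSDME at -2.01 ± 0.57, each as the HA-TRIM15 effect minus the shYY2 effect. GSDME was too low to be tested in the HA-TRIM15 experiment alone and passed the filter here through shYY2, where it was high, so nothing is read from its call. For MEFV the difference was -0.18 ± 0.53 and was not called.

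The genes around the complex were followed with a list of 48 other sensors, regulators, executioners and cytokines, written from general knowledge with earlier results of these data known. On HFD 20 were higher and 7 lower among 33 tested, where 49.5% of all tested genes were called. With HA-TRIM15 9 were higher and 1 lower among 32, against 22.1% of all genes called. With shYY2 13 were higher and 15 lower among 32, against 75.0% of all genes, and with shFOXRED1 8 were higher and 7 lower among 32, against 36.6%. With HA-TRIM15 the count was 6 without any 1 of the 3 EV libraries and 13 without HA-TRIM15 replicate 1. The median log2 fold change of the subgroups on HFD was 0.60 for cytokines and receptors, 0.22 for regulators, 0.18 for sensors and adaptors and 0.13 for executioners and other caspases. The subgroup of cytokines and receptors had a median of -0.50 with shYY2 and -0.40 with shFOXRED1.

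Among sensors and adaptors, AIM2, the sensor of cytosolic DNA, rose on HFD from 4.77 ± 0.465 to 10.5 ± 0.437 CPM, a log2 fold change of 1.17 ± 0.10. With shYY2 AIM2 fell from 6.34 ± 0.363 to 2.91 ± 0.394 CPM, by 1.12 ± 0.13 on the log2 scale. IFI16, a nuclear DNA sensor, rose by 0.35 ± 0.05 on HFD and by 0.16 ± 0.04 with shYY2. With shFOXRED1 its groups overlapped and its change of 0.24 ± 0.08 lost the call without shFOXRED1 replicate 3, at 0.118, or without shControl replicate 1 or 2. CARD8, a relative of NLRP1, fell on HFD by 0.43 ± 0.06.

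Among regulators, TXNIP, a binding partner described for NLRP3, gave the largest change of the related genes with HA-TRIM15. It rose from 186 ± 0.246 to 560 ± 12.2 CPM, a log2 fold change of 1.59 ± 0.03, in cells where NLRP3 itself was at or next to 0. TXNIP also rose with shYY2, by 0.74 ± 0.03, and fell on HFD by 0.37 ± 0.03. NEK7, another NLRP3 partner, rose on HFD by 0.85 ± 0.05. IRF2, known as a transcriptional activator of GSDMD, rose with shYY2 by 0.90 ± 0.06. On HFD, where GSDMD was called lower, IRF2 rose by 0.24 ± 0.07 with overlapping groups, a call lost without ND replicate 1. A link of IRF2 to the level of GSDMD was not tested.

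PANX1, a membrane channel, fell with shYY2 by 1.08 ± 0.04. DPP9, which holds NLRP1 inactive, fell with shYY2 from 137 ± 4.86 to 92.0 ± 3.62 CPM, a log2 fold change of -0.57 ± 0.04. MAP3K20, the ribosome stress kinase that can activate NLRP1, fell with shFOXRED1 from 57.0 ± 0.914 to 29.5 ± 2.40 CPM, a log2 fold change of -0.95 ± 0.08. MAP3K20 also fell with shYY2, by 0.23 ± 0.03, and rose on HFD by 0.53 ± 0.04 and with HA-TRIM15 by 0.16 ± 0.04. A link of these regulators to the level of NLRP1 was not tested. PKN2, one of the kinases that keep pyrin inactive, rose on HFD by 0.23 ± 0.04 and with HA-TRIM15 by 0.21 ± 0.04. Both calls were kept when any 1 library was left out. PKN2 also rose with shFOXRED1 by 0.20 ± 0.06, a call lost without shControl replicate 1 or 2, and the change was 0.130 without shFOXRED1 replicate 3. RHOA, which sits above these kinases, fell with shFOXRED1 by 0.24 ± 0.05 and rose on HFD by 0.20 ± 0.03. A link of PKN2 or RHOA to the level of MEFV was not tested.

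Among executioners, GSDMB, a gasdermin of epithelia, rose with shYY2 from 158 ± 1.74 to 640 ± 13.7 CPM, a log2 fold change of 2.02 ± 0.03. GSDMB also rose with shFOXRED1, by 0.73 ± 0.06. GSDMC rose on HFD by 0.84 ± 0.08, while PJVK fell there by 0.60 ± 0.20. The PJVK call was lost with DESeq2 (adjusted p = 0.111) and without HFD replicate 1 or ND replicate 2 (adjusted p up to 0.140). CASP8, an initiator caspase of apoptosis, fell with shYY2 by 0.63 ± 0.04.

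Among cytokines, IL1B, another substrate of caspase-1, rose on HFD from 11.9 ± 1.05 to 32.6 ± 1.12 CPM, a log2 fold change of 1.47 ± 0.07. It fell with shFOXRED1 from 23.7 ± 0.728 to 7.25 ± 0.155 CPM, by 1.71 ± 0.11. IL1A fell by 1.75 ± 0.09 with shFOXRED1 and by 1.06 ± 0.06 with shYY2, and rose by 0.83 ± 0.05 with HA-TRIM15 and by 1.13 ± 0.04 on HFD. With shFOXRED1, therefore, IL1A, IL1B and IL18 all fell, whereas with shYY2 IL18 rose and the interleukin-1 genes fell.

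IL1RN, the receptor antagonist, fell on HFD by 0.30 ± 0.09. IL18BP, the secreted decoy of interleukin-18, rose with shYY2 by 0.62 ± 0.07 and fell with HA-TRIM15 by 0.22 ± 0.07, the latter near the threshold (adjusted p = 0.0461) and lost with DESeq2 and in 5 of 6 fits without 1 library. IL1R1 rose with shFOXRED1 by 0.58 ± 0.10.

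**Figure D5:**
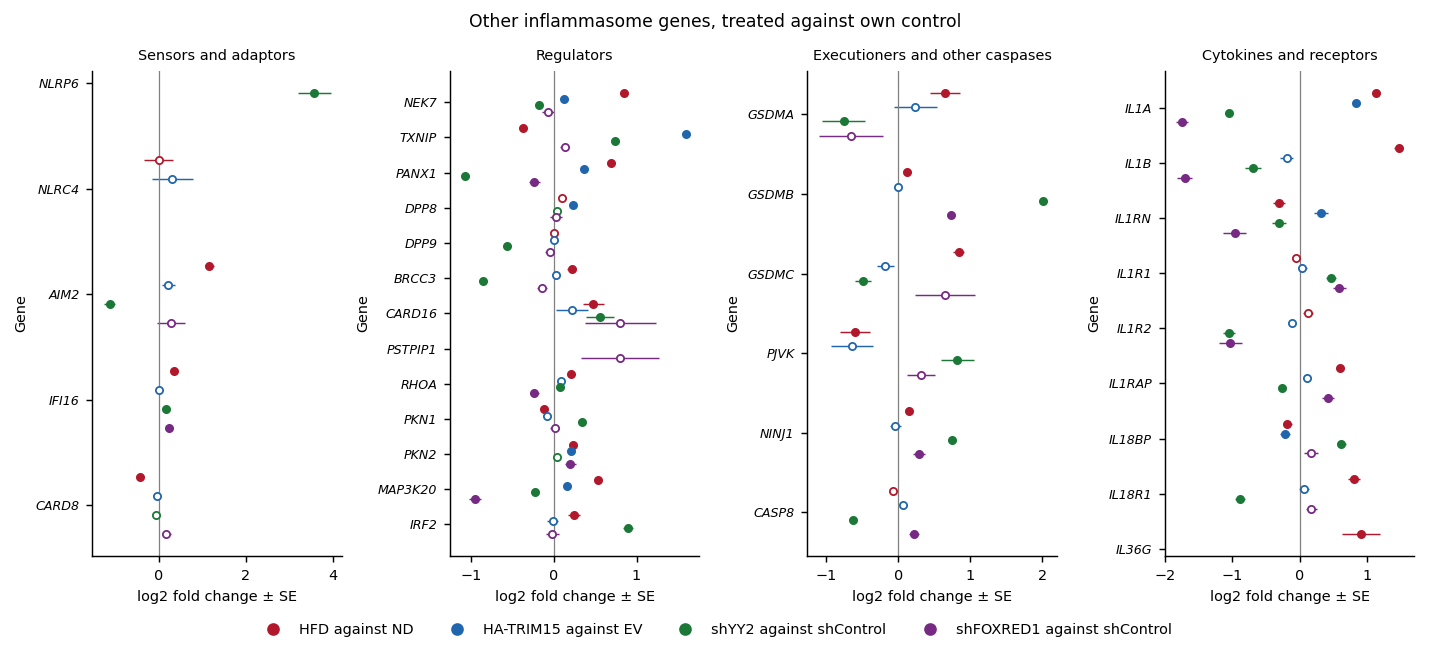
Log2 fold changes (points) with standard errors (bars) of the related genes tested in at least 1 experiment, in 4 subgroups and without 2 genes not reported here, filled where the adjusted p was under 0.05. TXNIP at 1.59 with HA-TRIM15, GSDMB at 2.02 with shYY2 and IL1A at -1.75 with shFOXRED1 lie far from 0, and NLRP6 at 3.57 with shYY2, the highest value shown, rests on 36, 27 and 30 counts against 3, 4 and 1.

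For the 5 members tested in all 4 experiments, the genes with the most similar pattern were sought among 14518 genes, over the 24 deviations of log2 CPM from the mean of the library's own control group. For CASP1 they were STS and SLC17A5, with Pearson's r of 0.966 for both, and for CASP4 BAZ2A and SMIM14 with 0.982 and 0.981. For IL18 they were CMTM4 and VCL, with 0.976 for both, and for PYCARD RAI1 and TBC1D2 with 0.946 and 0.940. GSDMD had no close match, its best being ZMAT5 with 0.749 and ABHD8 with 0.710. These values describe 24 libraries in 8 groups that share depth and experiment.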

How the data were processed

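RNA of 24 OE33 libraries was sequenced, 3 per group. The authors deposited raw read counts per Ensembl gene, 1 table per experiment. Per the labels, the genome builds hg38 and mm10 were named, and the aligner, the counting tool and the handling of mouse reads are not given in the sources used here. The labels and the study's methods name different kits, so whether the counting used strand is not settled. Of 61860 identifiers, 61757 (99.8%) matched a gene name. The 37 mitochondrial genes had 0 counts.

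Each experiment was fitted by itself with edgeR 4.0.16 in R 4.3.3: TMM scaling, a count filter (minimum count 10, minimum total 15), the quasi-likelihood test and Benjamini-Hochberg adjustment over all tested genes, with a threshold of 0.05. The standard error of a log2 fold change was taken as its size over the root of the F statistic. Differences of effects were interaction terms in joint fits. The fits were tested on simulated data. CPM by library were TMM-scaled within an experiment, and levels per kilobase over all 24 libraries. An exact permutation test of 3 against 3 libraries cannot give a p below 0.1 and was not used. P-values measure only the spread between these libraries, and intervals and limits for 0 counts cover counting error only.

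The members, the related genes and the named genes were chosen with earlier results of these data known. All 10 members are named. Of the related genes, those named are the called gene with the largest change in each direction in each subgroup and experiment, at a mean of at least 1 CPM, and genes whose products bind or cut a member. TRIM15, YY2 and FOXRED1 are named as targets. NLRP6, at a mean under 1 CPM, falls outside this rule and was singled out after its values were seen. The values of 2 related genes are not reported here, though the counts include them.

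Replicate numbers recur across groups. Deviations of same-numbered libraries from their group means correlated at 0.242, 0.128 and 0.436 with shFOXRED1 over 9286 genes with a mean of at least 200 counts, but at 0.032, 0.012 and 0.078 over all 15730 tested genes. The sources used here do not state whether libraries of the same number were paired. The main fits therefore used no pairing, and the replicate block is given only as an alternative. Alternatives were DESeq2 1.42.0, other scalings and count filters, the replicate block, a joint fit of all 24 libraries, a minimum fold of 1.2 and leaving out each library.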

Additional observations from a re-analysis of the deposited data

How the results depend on the processing

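The number of members called with HFD was 3 with DESeq2's Wald test in place of 5, and that with shFOXRED1 was 5 in the joint fit of all 24 libraries in place of 3. Related genes called with HA-TRIM15 numbered 4 at a fold change of at least 1.2 in place of 10, and 6 to 13 when 1 library was left out. For the difference between shYY2 and shFOXRED1, 2 members were called with at least 10 counts in every library in place of 4. For that between HFD and HA-TRIM15, 2 were called in place of 4 with at least 10 counts in every library, with DESeq2 and in the joint fit, and 2 to 4 when 1 library was left out. The cause was not tested. When 1 library was left out, these log2 values, none of them called, changed sign: GSDME with HFD (-0.43 to 0.11); with HA-TRIM15 NLRP1 (-0.063 to 0.29), CASP1 (-0.017 to 0.15) and GSDMD (-0.13 to 0.73); GSDMD with shYY2 (-0.34 to 1.68); CASP5 with shFOXRED1 (-0.19 to 0.78); and the differences of GSDMD between shYY2 and shFOXRED1 (-1.19 to 0.85), GSDME between HFD and HA-TRIM15 (-0.31 to 0.66), and MEFV (-0.63 to 0.11) and GSDMD (-1.54 to 0.46) between HA-TRIM15 and shYY2. Of the other values of members with 1 library left out, 437 kept their direction and side of the threshold, 31 lost and 9 gained a call; under all other alternatives 355 kept both, 14 lost and 10 gained a call, and none changed sign. Whether libraries of the same number were paired is not stated. With the replicate number as a block, GSDMD was called with shYY2 (0.62, adjusted p = 0.000476, edgeR), as it was without a count filter (0.61, adjusted p = 1.50e-06, edgeR). With the same block GSDMD was called for the difference between HFD and HA-TRIM15 (-1.18, adjusted p = 0.0127, edgeR). Without a count filter that difference was also called (-1.26). Low counts limit MEFV, NLRP1, CASP5 and GSDME.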

Other observations

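Of the 48 related genes, 31 were tested in all 4 experiments and 13 in none, and 9 had at most 3 counts in every library. NAIP, a sensor of bacterial flagellin, had 17 counts in ND replicate 3 and 0 to 3 counts in every other library, and was singled out after its values were seen.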
